A study of Homo sapiens with 9 samples.

Results

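The β-catenin destruction complex and the Dishevelled proteins that act on it were followed at the RNA level in Cyclin K depleted lung cancer cells. The members were chosen by name: the scaffolds AXIN1 and APC, the kinases GSK3A, GSK3B and CSNK1A1, the F-box proteins BTRC and FBXW11, and the Dishevelled genes DVL1, DVL2 and DVL3. Of these 10 genes, 8 were found by their symbols among the 31080 genes that carried a reference name, and APC and GSK3A are not analysed here. A549, an established human lung carcinoma cell line, was transfected with scrambled siRNA, siCyclin K#1 or siCyclin K#2. RNA was sequenced 48 h later from 3 replicate samples of each, 9 libraries in all. The labels used do not say whether the replicates were separate transfections. All 3 groups were the same parental line with no other allele or agent named, and the scrambled cells went through transfection as well. Both Cyclin K siRNAs were single sequences against the same mRNA, and they share the scrambled libraries as their control.

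Cells that receive no Wnt signal keep β-catenin low. Axin and APC hold β-catenin beside casein kinase 1α and GSK-3, which phosphorylate it in turn, and the F-box proteins β-TrCP and its paralogue FBXW11 then present it to an SCF ubiquitin ligase for destruction by the proteasome. When Wnt binds its receptors, Dishevelled polymerises at the membrane and draws Axin away, so that β-catenin survives and enters the nucleus to work with TCF/LEF factors.

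Levels are given as FPKM, sequenced fragments normalised for gene length and for library depth. The depth recovered from the lowest values ran from 31333749 to 33767961 reads per library, and 84.6% to 85.6% of the nonzero values came out as whole reads. Cyclin K mRNA (CCNK) fell from 7.02 ± 0.107 (SD, n = 3) FPKM in scrambled cells to 0.809 ± 0.0857 (SD, n = 3) under siCyclin K#1 and 0.844 ± 0.0661 (SD, n = 3) under siCyclin K#2, or 11.5% and 12% of the control. Of 7 epithelial and A549 markers, KRT8, KRT18, CDH1, AKR1C1 and AKR1B10 were present in every library, while KRT19 and EPCAM stayed at or below 0.107 and 0.279 FPKM. Of the 8 markers of leukocytes, endothelium and fibroblasts, CD3E is not analysed here and 6 were at or below 0.0712 FPKM. COL1A1 was the exception, with 2.03 ± 0.218 (SD, n = 3) FPKM in scrambled cells, 14.0 ± 0.572 (SD, n = 3) under siCyclin K#1 and 3.19 ± 0.0999 (SD, n = 3) under siCyclin K#2. Its part in the results was not tested. Since these are bulk cultures, fewer cells with an RNA and less of that RNA per cell cannot be told apart.

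Changes were tested with limma on log2(FPKM + 0.1) over 21048 genes, with Benjamini-Hochberg adjustment, and a gene was called at an adjusted p under 0.05. A log2 fold change on this scale slightly understates the change of a low gene such as AXIN1. Of the members, 3 were called with both siRNAs, GSK3B and AXIN1 as higher and FBXW11 as lower. The RefSeq sequence of 250 bases upstream of their transcription start in GRCh38.p14 is shown for these 3, 5′ to 3′ on the strand of the gene. This stretch lies just before the RefSeq start of each mRNA. Capitals mark GC boxes, GGGCGG on either strand. They lie at chr3:120094448-120094697 for GSK3B, chr5:172006639-172006888 for FBXW11 and chr16:352724-352973 for AXIN1, all on the minus strand. Most of the FBXW11 window lies inside the gene as the files place it, whose start is farther upstream.
GSK3B: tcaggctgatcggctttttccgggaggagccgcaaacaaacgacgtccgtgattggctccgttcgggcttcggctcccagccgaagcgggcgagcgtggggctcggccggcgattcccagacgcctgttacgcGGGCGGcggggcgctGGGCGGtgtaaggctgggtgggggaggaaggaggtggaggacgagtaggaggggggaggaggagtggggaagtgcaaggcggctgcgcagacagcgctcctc
FBXW11: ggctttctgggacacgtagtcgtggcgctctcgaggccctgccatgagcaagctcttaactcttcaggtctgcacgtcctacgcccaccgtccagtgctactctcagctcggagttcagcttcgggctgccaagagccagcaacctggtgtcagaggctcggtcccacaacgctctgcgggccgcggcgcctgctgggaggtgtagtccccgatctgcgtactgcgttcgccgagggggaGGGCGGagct
AXIN1: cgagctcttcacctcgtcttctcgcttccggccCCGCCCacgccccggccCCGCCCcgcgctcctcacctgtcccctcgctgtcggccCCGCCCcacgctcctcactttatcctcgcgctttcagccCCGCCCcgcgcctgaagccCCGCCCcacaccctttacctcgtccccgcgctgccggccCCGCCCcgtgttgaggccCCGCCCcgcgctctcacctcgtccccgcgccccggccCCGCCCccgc

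The AXIN1 sequence held 8 GC boxes, that of GSK3B 2 and that of FBXW11 1. Over the 7 members with such a sequence, which had 8 sequences between them, 7 sequences held a GC box, against 42.3% of 27305 RefSeq promoter windows of the same length. Those windows were taken 1 per gene symbol, while CSNK1A1 gave 2 sequences, and only that lying wholly inside its gene held no GC box. The 7 with a GC box were 64.4% to 83.2% G or C, and the background was not matched for this. The letters CTTTGA of a TCF/LEF motif, searched on both strands, were in 0 of the 8 sequences and in 11.4% of all windows. A CCAAT box was in 3 of the 8 and in 33.0% of all. No match says only that these letters are not in this window, and a match is not a binding site. BTRC had no upstream sequence in the table used.

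The 8 members were all expressed and all passed the filter on low values, a level of 0.1 FPKM or more in 3 or more libraries. In scrambled cells FBXW11 had the highest mean level, followed by CSNK1A1. DVL1 and GSK3B came next, with ranges that overlapped each other, then DVL3, and then BTRC and DVL2, whose ranges also overlapped. AXIN1 was the lowest, at 1.64 FPKM against 7.05 for DVL2. Under siCyclin K#1 the order changed at the top: GSK3B stood above CSNK1A1 and FBXW11, which overlapped. Under siCyclin K#2 the levels of CSNK1A1, FBXW11, GSK3B and DVL1 overlapped from one to the next.

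**Figure D1:**
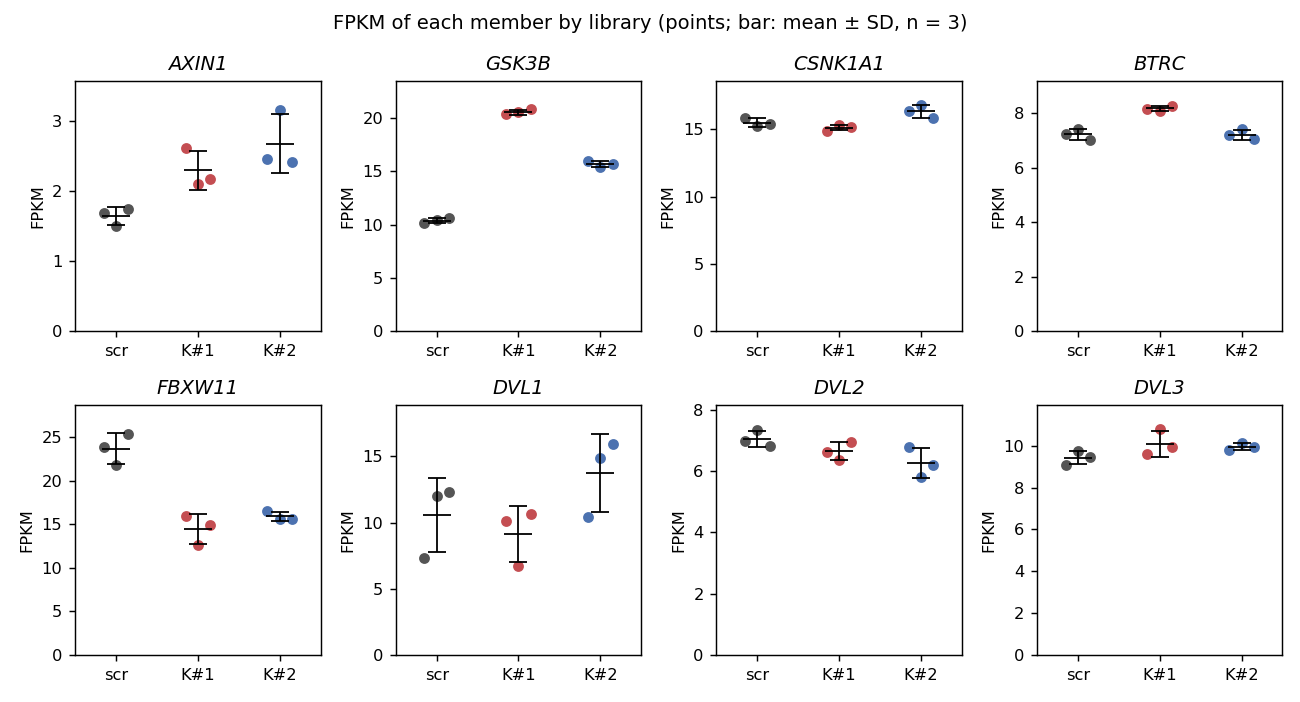
FPKM of the 8 members in each of the 9 libraries (points), with the mean and SD of each group of 3, where scr is scrambled siRNA and K#1 and K#2 are the Cyclin K siRNAs. GSK3B sat at 10.1 to 10.6 FPKM in scrambled cells, at 20.3 to 20.8 under siCyclin K#1 and at 15.4 to 15.9 under siCyclin K#2, while FBXW11 fell from at least 21.8 to at most 16.5.

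Under siCyclin K#1, 4 of the 8 members were called, 3 higher and 1 lower, where 44.8% of all tested genes were called. Under siCyclin K#2, 3 members were called, 2 higher and 1 lower, against 34.9% of all genes, and with both siRNAs taken as 1 group 3 members were called against 28.6%. The 3 members called the same way in both single comparisons, 37.5% of the 8, stood against 25.6% of all tested genes and 40.5% of those averaging 1 FPKM or more. Between the siRNAs, 2 members differed, against 29.4%. Among the 11243 genes averaging 1 FPKM or more, as all 8 members do, the shares called were higher, at 64.3%, 53.5%, 42.0% and 44.5% in the same order. Read against these shares, the count of members called is not a result about the complex. By the other threshold, a fold over 3 with an unadjusted p under 0.01, 0 members were called in any of the 4 comparisons, against 4.67%, 1.94%, 2.29% and 1.53% of all genes in that order, although 4, 4, 3 and 4 members had an unadjusted p under 0.05 in limma. Another scaling between libraries moved the median of all genes in the siCyclin K#1 comparison from 0.10 by -0.11 (median-ratio rescaling) or -0.12 (quantile normalization), so values under both are given where they matter. Under siCyclin K#1 the split of the calls depended on this. Median-ratio rescaling left GSK3B called as higher, and FBXW11, CSNK1A1 and DVL2 as lower, while quantile normalization left only GSK3B and FBXW11 called.

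GSK3B rose with both siRNAs, to 1.98-fold under siCyclin K#1 and 1.51-fold under siCyclin K#2. This gene encodes GSK-3β, the kinase that marks β-catenin for β-TrCP, and spans 273095 bp of chromosome 3 (ENSG00000082701, 119821323 to 120094417, minus strand of GRCh38). Its level was 10.1, 10.4 and 10.6 FPKM in the scrambled libraries. It was 20.3, 20.5 and 20.8 FPKM under siCyclin K#1, and 15.9, 15.4 and 15.6 FPKM under siCyclin K#2. No library of one group came within the range of another, so that the groups fell into 3 separate steps. The log2 fold change was 0.98 under siCyclin K#1 (SE 0.035, adjusted p = 1.2e-07 from limma) and 0.59 under siCyclin K#2 (SE 0.035, adjusted p = 3.9e-06 from limma). Tested directly, GSK3B was higher under siCyclin K#1 than under siCyclin K#2 by 0.39 on the log2 scale (adjusted p = 6.5e-05 from limma). With 3 libraries against 3 no exact permutation test can give a p below 0.10. The 6 Cyclin K siRNA libraries against the 3 scrambled ones gave the smallest that this design allows, an exact two-sided permutation p of 0.0238. Here and below, this pooled test treats libraries of different siRNAs as replicates of a single condition, which they are not.

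AXIN1, the scaffold that brings β-catenin to its kinases, was higher in Cyclin K depleted cells by 1.37-fold and 1.58-fold. It lies on chromosome 16 (ENSG00000103126, 287440 to 352673, minus strand). Its FPKM was 1.68, 1.5 and 1.74 in scrambled cells, 2.61, 2.09 and 2.17 under siCyclin K#1, and 2.45, 3.16 and 2.41 under siCyclin K#2. All 6 Cyclin K siRNA libraries lay above all 3 scrambled ones (exact two-sided permutation p = 0.0238), with a wider spread than GSK3B showed. The log2 fold change was 0.46 under siCyclin K#1 (SE 0.13, adjusted p = 0.019 from limma) and 0.66 under siCyclin K#2 (SE 0.13, adjusted p = 0.0038 from limma). The siCyclin K#1 value was 0.34 after median-ratio rescaling and 0.27 after quantile normalization, with adjusted p of 0.0639 and 0.13 from limma, and its call was also lost without scrambled replicate 2 (log2 fold change 0.40, adjusted p = 0.0634) and without siCyclin K#1 replicate 1 (0.36, adjusted p = 0.0646). The difference between the siRNAs, -0.21 with a 95% interval from -0.50 to 0.09, did not pass the test. AXIN1 rested on an estimated 358 to 785 reads per library, the fewest of the members. None of its values came out as whole reads, so these counts are approximate.

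CSNK1A1 encodes casein kinase 1α, which primes β-catenin for GSK-3. The gene lies on chromosome 5 (ENSG00000113712, 149492197 to 149551552, minus strand). Its FPKM was 15.9, 15.3 and 15.4 in scrambled cells, 14.9, 15.3 and 15.2 under siCyclin K#1, and 16.4, 16.8 and 15.8 under siCyclin K#2. Both Cyclin K groups overlapped the scrambled group. Its log2 fold change was -0.03 (95% interval from -0.12 to 0.05) and 0.07 (from -0.01 to 0.16), with adjusted p of 0.489 and 0.163 from limma. The siCyclin K#1 libraries lay below those of siCyclin K#2, and that difference of -0.11 had an adjusted p of 0.0562 from limma. After median-ratio rescaling CSNK1A1 was called as lower under siCyclin K#1 (-0.16, adjusted p = 0.00994 from limma). Its row shares 2886 exon bases with the same-strand transcript AC021078.1, whose reads cannot be told apart from it.

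The F-box paralogues BTRC and FBXW11 did not move together, as FBXW11 was 1.64-fold and 1.48-fold lower in Cyclin K depleted cells, and BTRC 1.13-fold higher under siCyclin K#1 and 0.998-fold of the control under siCyclin K#2. Both recognise the phosphorylated β-catenin degron and hand it to the ligase, and both also act on other substrates such as IκB. FBXW11 (ENSG00000072803) lies on chromosome 5 from 171861549 to 172006873 on the minus strand, and BTRC (ENSG00000166167) on chromosome 10 from 101354033 to 101557321 on the plus strand. FBXW11 had 23.9, 21.8 and 25.3 FPKM in scrambled cells, 16, 12.6 and 14.9 under siCyclin K#1, and 16.5, 15.6 and 15.6 under siCyclin K#2. Every Cyclin K siRNA library lay below every scrambled one (exact two-sided permutation p = 0.0238). The log2 fold change of FBXW11 was -0.71 (SE 0.0895, adjusted p = 0.000207 from limma) under siCyclin K#1 and -0.57 (SE 0.0895, adjusted p = 0.00117 from limma) under siCyclin K#2. The siRNAs differed by -0.14 for this gene, with a 95% interval from -0.35 to 0.06 that includes 0.

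BTRC had 7.23, 7.44 and 7.02 FPKM in scrambled cells and 7.19, 7.41 and 7.05 under siCyclin K#2, which overlapped throughout. Under siCyclin K#1 it had 8.18, 8.09 and 8.29 FPKM, above both other groups. Its log2 fold change was 0.18 under siCyclin K#1 (SE 0.0438, adjusted p = 0.00964 from limma) and -0.00 under siCyclin K#2 (95% interval from -0.10 to 0.10, adjusted p = 0.985 from limma). The rise under siCyclin K#1 was 0.06 after median-ratio rescaling and 0.09 after quantile normalization, and neither passed the test (adjusted p = 0.35 and 0.132 from limma). The direct difference between the siRNAs was 0.18 (adjusted p = 0.0144 from limma), or 0.11 after median-ratio rescaling, which did not pass (adjusted p = 0.111).

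A ratio of FPKM within a library does not move when each library is multiplied by a factor, as in median-ratio rescaling, though it does under quantile normalization. The ratio of BTRC to FBXW11 was 0.303, 0.342 and 0.277 in scrambled cells. It was 0.512, 0.645 and 0.558 under siCyclin K#1, and 0.437, 0.475 and 0.451 under siCyclin K#2. The 3 groups did not overlap, with scrambled cells lowest and siCyclin K#1 highest. On the log2 scale the 6 Cyclin K siRNA libraries were higher by 0.73 (exact two-sided permutation p = 0.0238, and 0.0357 after Benjamini-Hochberg adjustment over 3 ratios). This test pools siRNAs whose libraries did not overlap, so its p is not over replicates of a single condition. The ratios were chosen with earlier results of these data known, and how many other gene pairs separate in this way was not counted. Under siCyclin K#2 BTRC changed by -0.00 and FBXW11 by -0.57, so there the ratio mostly restates the fall of FBXW11. The groups differed by 0.89 under siCyclin K#1 and 0.57 under siCyclin K#2, and siCyclin K#1 was above siCyclin K#2 by 0.33, each with the smallest exact permutation p that 3 against 3 allows, 0.10.

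**Figure D2:**
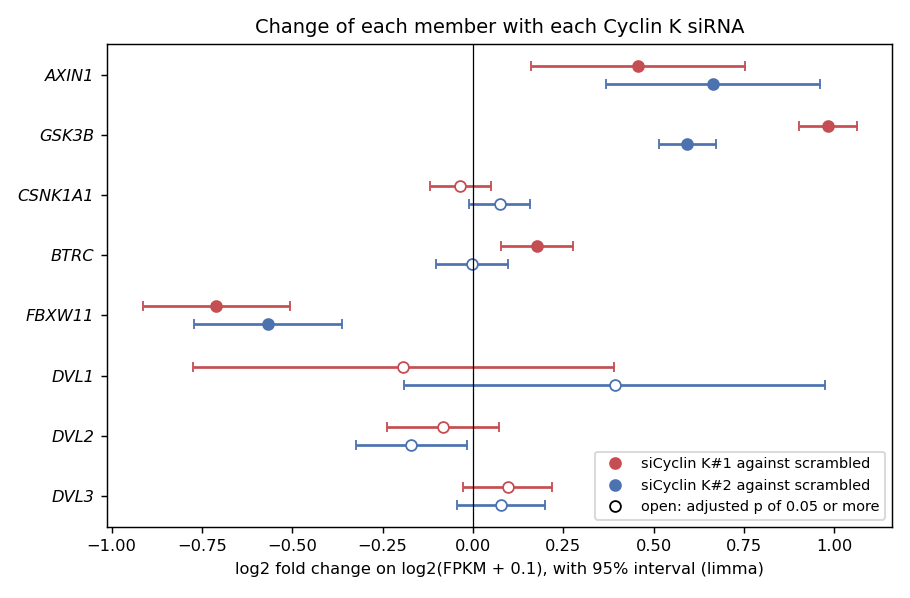
Log2 fold change of each member against scrambled siRNA on the log2(FPKM + 0.1) scale, with its 95% interval from limma, for siCyclin K#1 and siCyclin K#2, where filled points have an adjusted p under 0.05. AXIN1 and GSK3B lay to the right of 0 and FBXW11 to the left with both siRNAs, BTRC was filled under siCyclin K#1 alone, and the intervals of DVL1 were the widest.

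The Dishevelled genes encode the 3 human paralogues of the cytoplasmic protein that relays the Wnt signal from Frizzled to Axin. With limma 0 of the 3 were called in any of the 4 comparisons, although DVL2 under siCyclin K#2 and DVL1 between the siRNAs had an unadjusted p of 0.0343 and 0.0493. DVL1 lies on chromosome 1 (ENSG00000107404, 1335276 to 1349350, minus strand), DVL2 on chromosome 17 (ENSG00000004975, 7225341 to 7234545, minus strand) and DVL3 on chromosome 3 (ENSG00000161202, 184155388 to 184173610, plus strand).

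DVL1 had 7.35, 12 and 12.3 FPKM in scrambled cells, 10.1, 6.75 and 10.6 under siCyclin K#1, and 10.4, 14.9 and 16 under siCyclin K#2. In each group 1 library lay well below the other two, namely scrambled replicate 1, siCyclin K#1 replicate 2 and siCyclin K#2 replicate 1. The SD within groups was 0.368 on the log2 scale, more than that of 95% of the 4270 genes within 2-fold of its level, whose median was 0.0826. The low libraries held 946, 807 and 1278 reads of DVL1, whole in every library, for which counting error is at most 3.52%. The log2 fold change was -0.19 under siCyclin K#1 (95% interval from -0.78 to 0.39) and 0.39 under siCyclin K#2 (from -0.19 to 0.97), and adjusted p were 0.587 and 0.284 from limma. With this spread, any change of DVL1 within these intervals remains possible, and the smallest detectable change was not computed.

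DVL2 had 6.98, 7.34 and 6.82 FPKM in scrambled cells, 6.62, 6.37 and 6.96 under siCyclin K#1, and 6.78, 5.80 and 6.20 under siCyclin K#2. The siCyclin K#2 libraries lay below the scrambled ones by a narrow gap, and those of siCyclin K#1 overlapped them. Its log2 fold change was -0.08 under siCyclin K#1 and -0.17 under siCyclin K#2, with adjusted p of 0.368 and 0.0861 from limma. The siCyclin K#2 difference passed the test as lower after median-ratio rescaling (-0.22, adjusted p = 0.0376), after quantile normalization (-0.25, adjusted p = 0.0267) and without siCyclin K#2 replicate 1 (-0.23, adjusted p = 0.0303). That of siCyclin K#1 passed after median-ratio rescaling (-0.20, adjusted p = 0.0405 from limma).

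DVL3 had 9.10, 9.74 and 9.47 FPKM in scrambled cells, 9.58, 10.8 and 9.92 under siCyclin K#1, and 9.78, 10.1 and 9.95 under siCyclin K#2. Only the siCyclin K#2 libraries all lay above the scrambled ones. Its log2 fold change was 0.10 and 0.08, with adjusted p of 0.187 and 0.319 from limma, and its sign depended on the scaling, at -0.03 for siCyclin K#1 after median-ratio rescaling and -0.00 for siCyclin K#2 after quantile normalization.

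The ratio of DVL3 to DVL2 was 1.3, 1.33 and 1.39 in scrambled cells, 1.45, 1.69 and 1.43 under siCyclin K#1, and 1.44, 1.75 and 1.60 under siCyclin K#2. All 6 Cyclin K siRNA libraries were above the scrambled ones, by 0.22 on the log2 scale (exact two-sided permutation p = 0.0238, and 0.0357 after adjustment over 3 ratios). As for BTRC to FBXW11, this test pools both siRNAs. The ratio was chosen with earlier results of these data known, so its p is descriptive only. Both siRNAs overlapped, with a difference of -0.07. The ratio of DVL1 to DVL2 overlapped between Cyclin K siRNA and scrambled libraries (0.23 on the log2 scale, exact permutation p = 0.619). That pooled value averages opposite signs, -0.11 under siCyclin K#1 and 0.57 under siCyclin K#2. The siCyclin K#1 libraries lay below those of siCyclin K#2, by a narrow gap at the nearest libraries. This difference of -0.68 had an exact permutation p of 0.10, the smallest that 3 against 3 allows. Summed over the 3 genes, Dishevelled RNA was 27.1 ± 3.14 (SD, n = 3) FPKM in scrambled cells, 25.9 ± 1.83 (SD, n = 3) under siCyclin K#1 and 30.0 ± 2.67 (SD, n = 3) under siCyclin K#2. DVL2 made up the smallest share in each group on average, 26.3%, 25.7% and 21.1%.

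**Figure D3:**
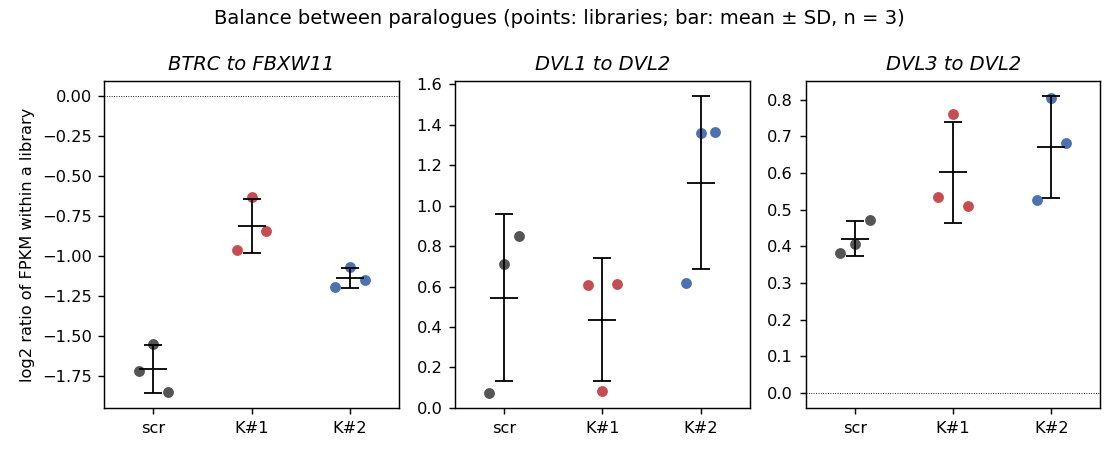
Log2 ratio of FPKM within a library for BTRC to FBXW11, DVL1 to DVL2 and DVL3 to DVL2 (points), with the mean and SD of each group of 3, and 0 where both genes have the same FPKM. For BTRC to FBXW11 the 3 groups were apart, at -1.85 to -1.55 in scrambled cells, -0.97 to -0.63 under siCyclin K#1 and -1.20 to -1.07 under siCyclin K#2, and for DVL1 to DVL2 the scrambled libraries overlapped both others.

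The members differ in the length of genome they occupy, and genes of 100 to 300 kb moved upwards in these libraries as a group. Genes over 300 kb were not counted. Genes of 100 to 300 kb had a median log2 fold change of 0.28 under siCyclin K#1 and 0.22 under siCyclin K#2 (1517 genes averaging 1 FPKM or more), against -0.06 and -0.06 for 4108 genes under 20 kb. Those of 20 to 100 kb had 0.09 and 0.06 (4422 genes), and AXIN1 and CSNK1A1, at 65234 and 59356 bp, belong there. GSK3B and BTRC, at 273095 and 203289 bp, and FBXW11, at 145325 bp, belong to the class of 100 to 300 kb, in which FBXW11 moved opposite to the median. DVL1, DVL2 and DVL3 span 14075, 9205 and 18223 bp. The part of gene length in these results was not tested.

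Further genes of the same machinery were taken from a list of 49 other components and regulators, of which 45 had a row and 44 were tested. Under siCyclin K#1, 25 were called as higher and 8 as lower, and under siCyclin K#2, 18 as higher and 6 as lower, or 75.0% and 54.5% against 44.8% and 34.9% of all tested genes. These splits were 22 and 10 after median-ratio rescaling and 24 and 9 after quantile normalization for siCyclin K#1, and 15 and 6, and 14 and 6, for siCyclin K#2. Of the list, 38 genes averaged 1 FPKM or more, and 76.3% and 57.9% of these were called, against 64.3% and 53.5% of all such genes. Called the same way with both siRNAs were 21 of the 44, 17 higher and 4 lower, where 25.6% of all tested genes were, and 52.6% of the 38 against 40.5% of genes at that level. This list was chosen with earlier results of these data known, so its shares support nothing about the machinery as a group. The median log2 fold change of the 44 was 0.37 under siCyclin K#1 and 0.15 under siCyclin K#2, where all tested genes had 0.10 and 0.01. After median-ratio rescaling it was 0.25 and 0.11, where all tested genes had -0.0039 and -0.0195. After quantile normalization it was 0.25 and 0.07, where all tested genes had -0.0188 and -0.0105. The rows of CSNK1E, CSNK1G1, SIAH1 and CSNK2B join these genes with others, whose reads cannot be told apart, among them PCLAF on the row of CSNK1G1, which was called as higher under siCyclin K#1.

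Ranked by the smaller of their changes under both siRNAs, the leading genes were CCDC88C, CTNNBIP1, PPP2R5D, NKD2 and KLHL12, all higher. CCDC88C encodes Daple, which binds Dishevelled, and went from 0.695 ± 0.0542 (SD, n = 3) FPKM to 2.71 ± 0.065 (SD, n = 3) under siCyclin K#1 and 2.24 ± 0.144 (SD, n = 3) under siCyclin K#2. CTNNBIP1 encodes ICAT, which blocks the binding of β-catenin to TCF, and went from 1.32 ± 0.18 (SD, n = 3) FPKM to 3.95 ± 0.222 (SD, n = 3) and 2.93 ± 0.133 (SD, n = 3). Its log2 fold changes of 1.52 and 1.1 had adjusted p of 4.5e-06 and 5.3e-05 from limma. NKD2, a Dishevelled-binding antagonist, had log2 fold changes of 1.01 and 1.07 (adjusted p = 6.3e-06 and 8.1e-06 from limma). KLHL12, an adaptor of the cullin-3 ligase that targets Dishevelled, had 0.88 and 0.82 (adjusted p = 2.2e-05 and 5.8e-05 from limma).

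Grouped by role, 10 genes that bind Dishevelled or set its turnover averaged 1 FPKM or more. Of these, 7 were called as higher and 0 as lower under siCyclin K#1, and 6 as higher and 0 as lower under siCyclin K#2, or 70.0% and 60% where 64.3% and 53.5% of all genes at that level were called. DACT3 and CXXC4, of the same role, reached 0.1 FPKM in fewer than 3 scrambled libraries and so passed the filter through libraries where they were high. VANGL2, a low planar polarity gene called in opposite directions, had 0.227 ± 0.0962 (SD, n = 3) FPKM in scrambled cells, 0.60 ± 0.0814 (SD, n = 3) under siCyclin K#1 and 0.083 ± 0.0135 (SD, n = 3) under siCyclin K#2. Of 8 subunits of PP2A, the phosphatase that works beside Axin, 4 were called as higher and 2 as lower with both siRNAs, or 75.0% against 40.5% of genes averaging 1 FPKM or more, PPP2R5D with log2 fold changes of 1.06 and 1.42 and the scaffold PPP2R1B with -0.75 and -1.01. PPP2R5E, another regulatory subunit, went from 11.5 ± 0.262 (SD, n = 3) FPKM to 4.20 ± 0.405 (SD, n = 3) under siCyclin K#1 and 10.6 ± 0.272 (SD, n = 3) under siCyclin K#2, a direct difference of -1.32 (adjusted p = 2.9e-06 from limma). Of 5 casein kinase 1 genes beside CSNK1A1, 3 were called as higher with both, or 60% against the same 40.5%, among them CSNK1G3 (0.81 and 1.06). The roles, and VANGL2, PPP2R1B, PPP2R5E and CSNK1G3 as examples, were chosen after their values were seen, so these shares support nothing about a role.

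**Figure D4:**
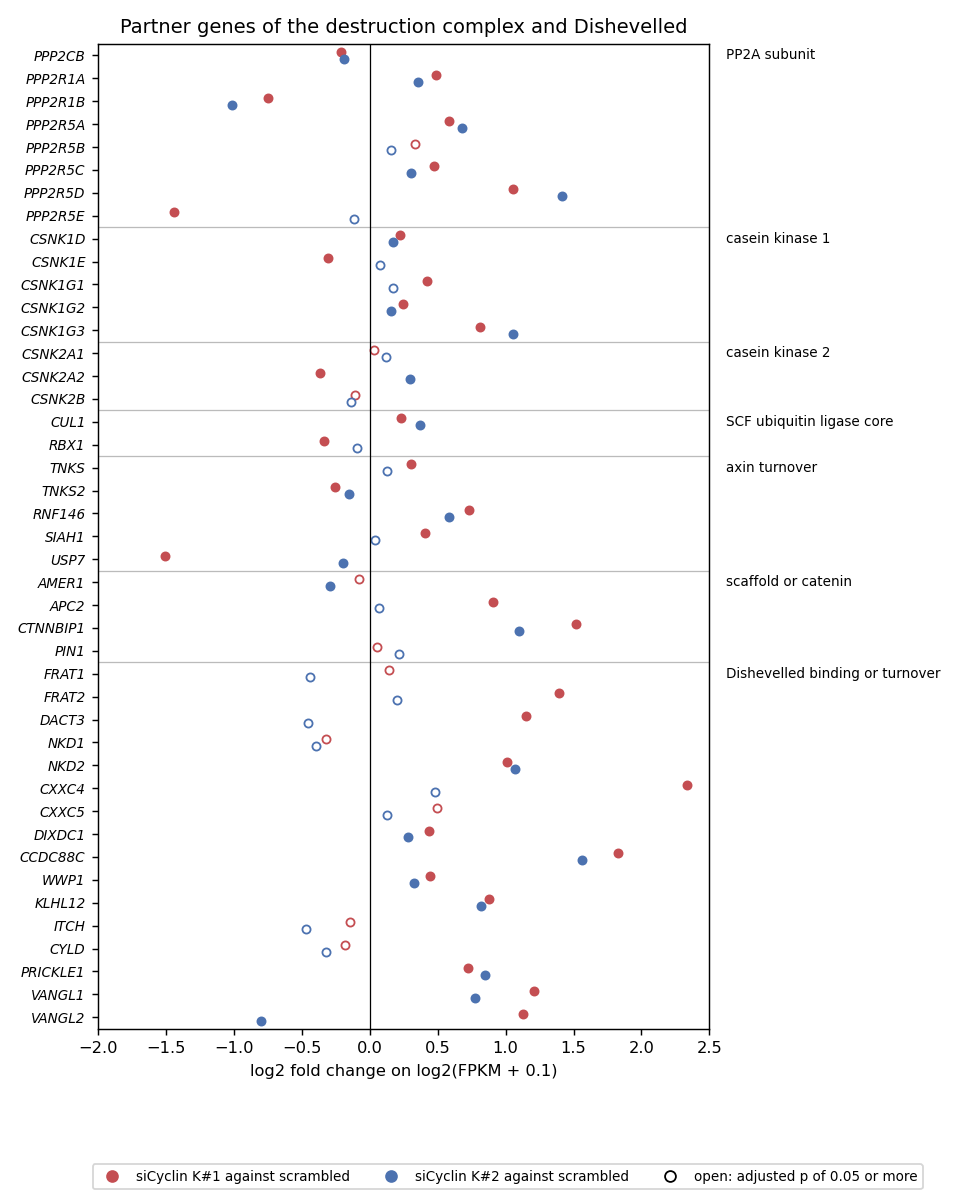
Log2 fold change against scrambled siRNA on the log2(FPKM + 0.1) scale for 43 further genes of the destruction complex and Dishevelled machinery, grouped by role, with filled points for an adjusted p under 0.05 from limma. Filled points of genes that bind Dishevelled or set its turnover lay to the right of 0, except VANGL2 under siCyclin K#2, and PP2A subunits lay on both sides.

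Genes known to be driven by β-catenin and TCF/LEF were called in both directions. Of 23 listed, 19 had a row and 17 were tested, of which 6 were higher and 5 lower under siCyclin K#1, and 4 higher and 6 lower under siCyclin K#2. That is 64.7% and 58.8%, against 44.8% and 34.9% of all tested genes. NOTUM, one of the 6, passed the filter through the siCyclin K#1 libraries where it was high, and the row of RNF43, one of those lower under siCyclin K#2, joins it with SUPT4H1. Of the 11 that averaged 1 FPKM or more, 81.8% were called under siCyclin K#1 and 90.9% under siCyclin K#2, against 64.3% and 53.5% of all genes at that level. Called the same way with both were 7 of these 11, 3 higher and 4 lower, or 63.6% against 40.5%. The target list was chosen with earlier results of these data known, so these shares support nothing about β-catenin targets as a group. CCND1, which encodes Cyclin D1, had log2 fold changes of -2.11 and -1.81 (adjusted p = 5.3e-09 and 2.1e-08 from limma), and FOSL1, an AP-1 subunit, -2.71 and -0.78 (adjusted p = 1.1e-07 and 0.000248 from limma). CD44, an adhesion receptor, was also lower (-0.87 and -0.43, adjusted p = 0.000365 and 0.0215 from limma). SOX9, a transcription factor, was higher (0.57 and 0.90, adjusted p = 0.000158 and 1.6e-05 from limma), as was BAMBI, a decoy receptor of TGF-β (0.46 and 0.61, adjusted p = 0.0004 and 0.000105 from limma).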

How the data were processed

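RNA-seq of 9 A549 libraries was used, and their labels gave the groups and replicate numbers. The authors deposited FPKM values, which they computed in StringTie 1.3.3b, and the aligner, filters and annotation release are not given in the sources used here. Coordinates of 7 members equalled GENCODE 29 on GRCh38, and those of DVL3 are as deposited. Low FPKM values were whole multiples of 1 read (tolerance 0.05), which gave the depth. Read intervals cover counting error only. Replicates were not duplicates, with a chi-square per degree of freedom of 15.2 to 19.8.

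Rows of 1 gene were summed, and limma 3.58.1 (R 4.3.3) was run on log2(FPKM + 0.1) (lmFit, eBayes with trend), followed by Benjamini-Hochberg adjustment, with both siRNAs as 1 group or as 3 groups that share the spread. Single values had an exact permutation test with scipy 1.17.1. The fit was tested on simulated data. All members are named, and by rule at most 5 genes of each list called the same way with both siRNAs, by the smaller change. VANGL2, PPP2R1B, PPP2R5E and CSNK1G3 were named outside this rule, after their values were seen. Other listed genes are named only for limits of their rows or of the filter. The members, lists and tests were chosen with earlier results of these data known. Of the listed genes, 1 is not reported here. Alternatives were other pseudocounts (0.01, 0.5 and 1), filters, scalings, a replicate block, eBayes without trend, the highest row per gene, and leaving out each library. A ratio of GSK3A to GSK3B was not run.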

Additional observations from a re-analysis of the deposited data

Results flagged for a closer look

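Of the 8 members, 2 passed a direct test between the siRNAs, or 25.0%, where 29.4% of all tested genes and 44.5% of those averaging 1 FPKM or more did, so the count is no result about the members. GSK3B under siCyclin K#1 exceeded its level under siCyclin K#2 by 0.39 on the log2 scale (adjusted p = 6.5e-05 from limma), with every siCyclin K#1 library above every siCyclin K#2 library. BTRC was higher with siCyclin K#1 by 0.18 (adjusted p = 0.0144 from limma), with its siCyclin K#2 libraries inside the scrambled range. The cause was not tested.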

How the results depend on the processing

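Of 608 values of the 8 members under 19 alternatives in 4 comparisons, 590 stayed on the same side of the threshold, 10 lost their call, 8 gained one and 0 changed sign while called. The calls of GSK3B and FBXW11 against scrambled siRNA were kept in every alternative run. With siCyclin K#1, the count of members called was 2 after quantile normalization in place of 4, since AXIN1 and BTRC lost their calls. Of all genes, 9227 were called there in place of 9435. After median-ratio rescaling the count stayed at 4, but the members called were not the same. AXIN1 and BTRC lost their calls, while CSNK1A1 and DVL2 gained calls as lower, and 9310 of all genes were called. The difference in the log2 ratio of BTRC to FBXW11 ran from 0.66 to 0.81 when single libraries were left out, and that of DVL3 to DVL2 from 0.18 to 0.24. Without a scrambled library the exact permutation p of both was 0.0714, the smallest that 6 against 2 allows. That of DVL1 to DVL2 ran from -0.01 to 0.38. AXIN1 with both siRNAs as 1 group lost its call after quantile normalization (0.42, adjusted p = 0.057) and without scrambled replicate 2 (0.50, adjusted p = 0.0571). Between the siRNAs, CSNK1A1 gained a call with a mean FPKM of at least 1 (-0.11), after median-ratio rescaling (-0.18) and without siCyclin K#2 replicate 3 (-0.13), and BTRC lost its call without that library (0.16, adjusted p = 0.0502). The cause was not tested.

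The labels do not say whether same-numbered samples were processed together. Deviations from the group means showed little in common by number, as the 9 same-numbered pairs had correlations of -0.07 to 0.04 over 11243 genes. Pairs of different numbers were not computed, so pairing cannot be decided from these values. With a replicate block, 3 members were called with both siRNAs as 1 group, 4 with siCyclin K#1, 3 with siCyclin K#2 and 2 between the siRNAs, with 0 calls changed, and 4773, 9062, 6947 and 5680 of all genes were called in place of 6015, 9435, 7353 and 6191. With 3 libraries a group, DVL1 is the member whose spread most limits what could be seen. GSK3B, CSNK1A1 and BTRC were at the other end. Only 1.9%, 5.1% and 2.5% of the genes within 2-fold of their levels had a smaller SD within groups. Their small SE rest in part on replicates that lay unusually close, and the cause was not tested.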
